A study of Arabidopsis thaliana with 4 samples.

Results

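AGL62, AGL61 and AGL40 are type I MADS-box genes of the M-alpha subclass, and their transcripts were compared between endosperm and the rest of the silique of Arabidopsis thaliana. The 3 genes were chosen by locus: AGL62 is AT5G60440, AGL61 is AT2G24840, and AGL40 is AT4G36590, which the gene tables list under its locus identifier only and which is called AT4G36590 here. They are 3 of 10514 genes with a named probe and a value on every array. Each has 1 probe, and all 3 had values on all 4 arrays.

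Endosperm was cut with a laser from sections of siliques at 4 days after pollination, in 3 replicate samples. Each was hybridised on 2-colour arrays against 1 common reference RNA, scraped from 1 slide after the endosperm had been removed, so it stands for the other silique tissues together, seed coat and embryo among them; the array descriptions name it whole silique RNA. Endosperm of replicate 1 carried the dye Cy3, that of replicate 3 carried Cy5, and replicate 2 was hybridised with each dye in turn. The sources used here give neither strain nor genotype. They also do not say if different plants were used for the replicates, so a p-value speaks to the spread of these 3 samples only, without that of the reference.

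MADS-box proteins bind DNA as dimers. Type I proteins carry the MADS domain without the keratin-like domain of the floral, type II (MIKC) class, and fall into the subclasses M-alpha, M-beta and M-gamma. M-alpha proteins typically pair with M-gamma proteins. AGL62 can pair with the M-gamma protein PHERES1 (PHE1) and holds back endosperm cellularisation, so that seeds without it cellularise their endosperm early and abort. AGL61, also known as DIANA, acts with the M-gamma protein AGL80 in the central cell, the female cell from which endosperm arises after fertilisation.

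Transcripts of all 3 genes were higher in endosperm than in the reference. AT4G36590 was 3.93-fold higher (95% confidence interval 3.07 to 5.02), AGL62 was 3.30-fold higher (2.39 to 4.55) and AGL61 was 1.58-fold higher (1.20 to 2.08). These folds are means of log2 ratios over 3 replicates, after the arrays of replicate 2 were averaged. Calls were made with limma at an adjusted p under 0.05, and many transcripts passed: 57.5% of 19449 probes were called in either direction and 32.0% were called higher. The members' calls are to be read against that share. Fewer cells of a type and less RNA per cell cannot be told apart in such tissue samples.

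Ratios are given as endosperm over reference, the likely direction, since the sources used here state neither the numerator nor the log base, which is taken as 2. The direction was set without any M-alpha gene. Of 9 endosperm markers with a named probe, 8 had values on every array, and their median log2 ratio per array lay between 0.96 and 1.21. For the 3 that are no MADS-box genes (MPC, IKU1 and IKU2) it lay between 0.31 and 1.04, whereas the median of 5 measured markers of seed coat, silique wall and vasculature lay between -0.55 and -0.21. Of the 8 endosperm markers 6 were called higher, 0 lower, and 2 were not called. The 2 were IKU1 and the M-gamma gene AGL96, which was at -0.43 and below 0 on every array. MPC was at 2.10 and IKU2 at 0.55 (limma adjusted p = 0.0485), while IKU1 was at 0.10, below 0 in replicate 1, and not called. IKU2 was at 1.04 in replicate 1, 0.31 and 0.20 in replicate 2, and 0.34 in replicate 3. With values in at least 2 of 3 replicates as the filter, IKU2 was not called (limma adjusted p = 0.0562). Of the 5 other markers 3 were called lower, and BAN (-0.39) and DFR (0.145) were not called. Of named probes 33.9% were called higher and 23.6% lower. No embryo marker had a named probe. If the reference were the numerator, every sign below would turn.

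AGL62 had a log2 ratio of 1.67 in replicate 1, 2.09 and 2.28 in replicate 2 with Cy3 and with Cy5, and 1.31 in replicate 3. All 4 arrays put it above the reference, with replicate 2 highest on both of its arrays and replicate 3 lowest. The mean was 1.72 ± 0.44 (SD, n = 3; limma adjusted p = 0.000768). Of the probes with a value on the array, 95.3% (replicate 1), 98.3% and 98.9% (replicate 2) and 92.3% (replicate 3) lay below AGL62. By its mean it was the 619th highest of 19449 probes. Its SD over replicates was larger than that of 84.1% of probes, yet the call held under each of the 13 alternatives tried, also against a fold change of 1.5 (adjusted p = 0.00431), which 12.2% of all probes passed as higher.

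AT4G36590 was at 2.26 in replicate 1, at 1.89 and 1.82 on the Cy3 and Cy5 arrays of replicate 2, and at 1.80 in replicate 3. It varied the least of the 3 genes: replicate 1 stood above the other arrays, which lay within 0.1 of each other. Its mean log2 ratio was 1.97 ± 0.25 (SD, n = 3; limma adjusted p = 0.000227), the 365th highest of 19449. Between 97.3% and 98.5% of probes lay below it on each array. Counted from the highest, its probe ranked 322nd in replicate 1, 537th and 563rd in replicate 2 and 624th in replicate 3, whereas that of AGL62 ranked 1028th, 383rd, 258th and 1756th in the same order. The call also held under all 13 alternatives, including the test against a fold change of 1.5 (adjusted p = 0.000793).

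AGL61 had the smallest ratio: 0.78 in replicate 1, 1.19 with Cy3 and 0.65 with Cy5 in replicate 2, and 0.28 in replicate 3. It was above the reference on every array, but the highest and lowest arrays differed by 0.91, more than the mean itself. That mean was 0.66 ± 0.33 (SD, n = 3; limma adjusted p = 0.0158), and 76.9% of probes lay below it. On the array of replicate 3 the share below was 62.8%, and on the Cy3 array of replicate 2 it was 91.5%. The call was lost without replicate 2 (0.53, adjusted p = 0.101), on the Cy5 arrays alone (0.46, adjusted p = 0.0524) and against a fold change of 1.5 (adjusted p = 0.775). Thus of the 3 members, AGL62 and AT4G36590 were shown to exceed 1.5-fold and AGL61 was not.

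**Figure D1:**
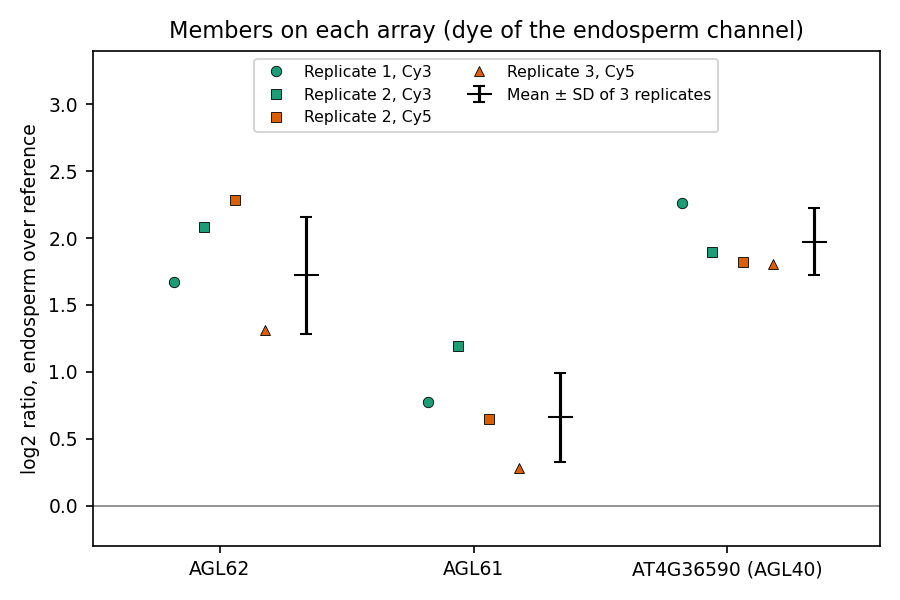
Log2 ratio (endosperm over reference, vertical axis) of AGL62, AGL61 and AT4G36590 on each array, with the symbol giving the replicate and the colour the dye of the endosperm channel; the black bar is the mean ± SD of 3 replicates. All 12 points lie above 0, AT4G36590 spans the shortest range (1.80 to 2.26), and replicate 3 is the lowest array for each gene.

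**Figure D2:**
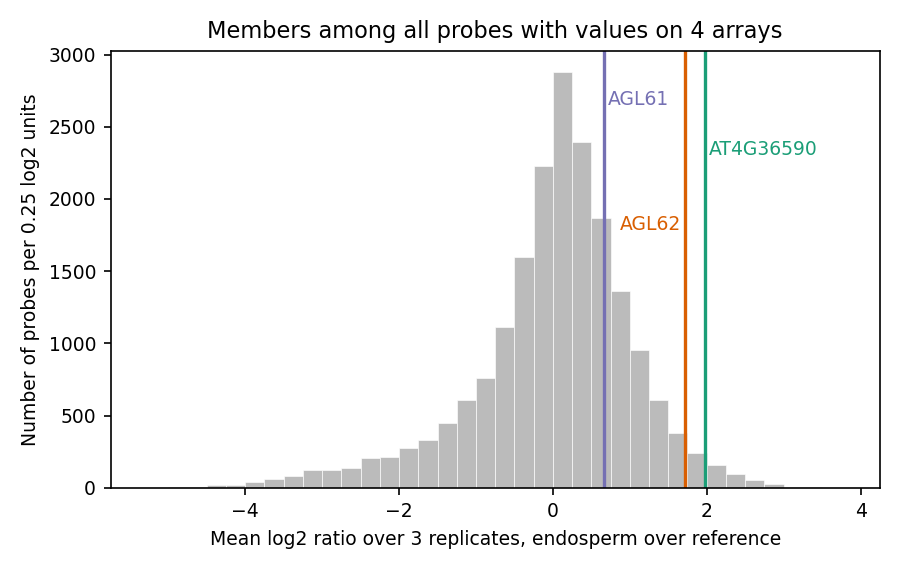
Histogram of the mean log2 ratio (horizontal axis, bins of 0.25) of the 19449 probes measured on every array, with the number of probes on the vertical axis and coloured lines at the means of the 3 genes. AGL62 (1.72) and AT4G36590 (1.97) lie in the right tail and AGL61 (0.66) lies on the right shoulder of the main peak.

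The histogram places the genes among all probes, whose median was 0.11. Replicate 3 gave the lowest ratio for each member, and the replicate that was highest differed: replicate 2 for AGL62 and AGL61 and replicate 1 for AT4G36590. The 4 arrays themselves held between 21829 and 23171 values and correlated with r between 0.87 and 0.92 across the probes, which are not independent replicates.

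The arrays of the different dyes were furthest apart for AGL61 among the 3 genes. Between the arrays of replicate 2, which hold the same RNAs, its log2 ratio was 0.55 lower where endosperm carried Cy5 (difference -0.55), a difference larger in size than that of 88.4% of probes. The same difference was 0.20 for AGL62 and -0.07 for AT4G36590, against an SD of 0.42 over all probes. With the dye as a term on the 4 arrays, Cy5 minus Cy3 was -0.52 for AGL61 (unadjusted p = 0.0776, limma adjusted p = 0.575), -0.27 for AT4G36590 (adjusted p = 0.703) and -0.08 for AGL62 (adjusted p = 0.956). No probe passed that term (0 of 19449 in limma), although 9.40% had an unadjusted p under 0.05. Each dye was carried by 1 other replicate, so this term also holds the difference between replicates 1 and 3.

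The members were then compared with each other, replicate by replicate, in 3 pairs. AGL62 exceeded AGL61 in log2 ratio by 0.90, 1.27 and 1.03 in replicates 1, 2 and 3, or by 1.06 ± 0.19 (SD, n = 3; exact sign-flip test, two-sided p = 0.25, adjusted over the pairs 0.375). AGL61 lay below AT4G36590 in every replicate, with a difference of -1.32 ± 0.33 (exact two-sided p = 0.25, adjusted 0.375). A p of 0.25 is the smallest that this sign-flip test can give with 3 replicates, so it could not pass for these differences, which were larger than their spread. AGL62 and AT4G36590 traded places: the difference was -0.59 in replicate 1, 0.33 in replicate 2 and -0.49 in replicate 3, with a mean of -0.25 ± 0.50 (exact two-sided p = 0.5, adjusted 0.5). The order of the ratios was thus AT4G36590, AGL62 and AGL61, of which the first and second did not differ beyond their spread. Each probe has its own response, so these are differences between ratios and not between transcript levels.

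The other M-alpha genes came from a list of 24 names, of which 19, the members included, were matched to a locus and 18 had a named probe. AGL60, AGL73, AGL74, AGL84 and AGL100 were not matched to a locus by name and were not analysed here. Of the 15 other genes with a probe, 8 had values on all 4 arrays, 5 more had values in at least 2 replicates, and 2 (AGL28 and AGL97) had none. Among the 8, 3 were called higher, 1 was called lower and 4 were not called, with a median log2 ratio of 0.38. Of named probes on all arrays 57.4% were called, 33.9% higher and 23.6% lower, so the share of these 8 called higher, 37.5%, lay near that of all named probes. Their number past 4-fold was 2 of 8, where 1.75% of all probes lay over 4-fold higher.

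AGL23, which is required for development of the female gametophyte and the embryo, had the highest ratio of the subclass. It was at 2.93 in replicate 1, at 3.10 and 2.51 in replicate 2 with Cy3 and Cy5, and at 2.21 in replicate 3, so all arrays put it over 4-fold above the reference. Its mean was 2.65 ± 0.38 (SD, n = 3; limma adjusted p = 0.000179). AGL102 followed, at 1.88 in replicate 1, 2.82 on both arrays of replicate 2 and 2.63 in replicate 3 (mean 2.44 ± 0.50, adjusted p = 0.000332). Both means were above those of all 3 members. AGL91 was also called higher (1.31 ± 0.47, adjusted p = 0.00244), but its arrays split by dye, with 0.94 and 0.41 on the Cy3 arrays and 1.90 and 1.84 on the Cy5 arrays. That split runs the opposite way to the one of AGL61.

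In contrast, AGL57 lay below the reference with little spread, at -0.72, -0.67, -0.64 and -0.60 on the arrays in the order of replicate 1, replicate 2 with Cy3, replicate 2 with Cy5 and replicate 3 (mean -0.66 ± 0.06, limma adjusted p = 0.00471). Its mean was about as far from 0 as that of AGL61, on the other side, and it likewise did not pass against a fold change of 1.5 (adjusted p = 0.675). AGL29 (0.38 ± 0.29), AGL39 (0.13 ± 0.11), AGL58 (0.39 ± 0.41) and AGL83 (-0.30 ± 0.03) were not called. AGL83 passed as lower under 6 of the 13 alternatives, centring of the arrays by median among them (adjusted p = 0.0352), and AGL29 passed as higher under 5, among them without replicate 3 (0.54, adjusted p = 0.0416).

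Genes with an empty cell were tested with values in at least 2 of 3 replicates, a setting in which 51.6% of 23380 probes were called, 28.6% higher and 23.0% lower. AGL59, next to AGL58 on chromosome 1 with 0 protein-coding genes between them, was called lower there (-1.03 ± 0.31, limma adjusted p = 0.00337), at -1.07 and -0.70 on the Cy3 arrays and -1.33 in replicate 3, while AGL58 lay above 0 on every array. AGL55 (-0.06 ± 0.03), AGL56 (0.14 ± 0.50), AGL85 (-0.04 ± 0.28) and AGL99 (0.42 ± 0.28) were not called. For AGL55 and AGL85 n was 2, and AGL55 had values on the Cy5 arrays only. Under this filter 3 of the 13 other M-alpha genes were higher and 2 lower, and the 3 members kept their calls with adjusted p of 0.00118 for AGL62, 0.0187 for AGL61 and 0.000375 for AT4G36590.

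**Figure D3:**
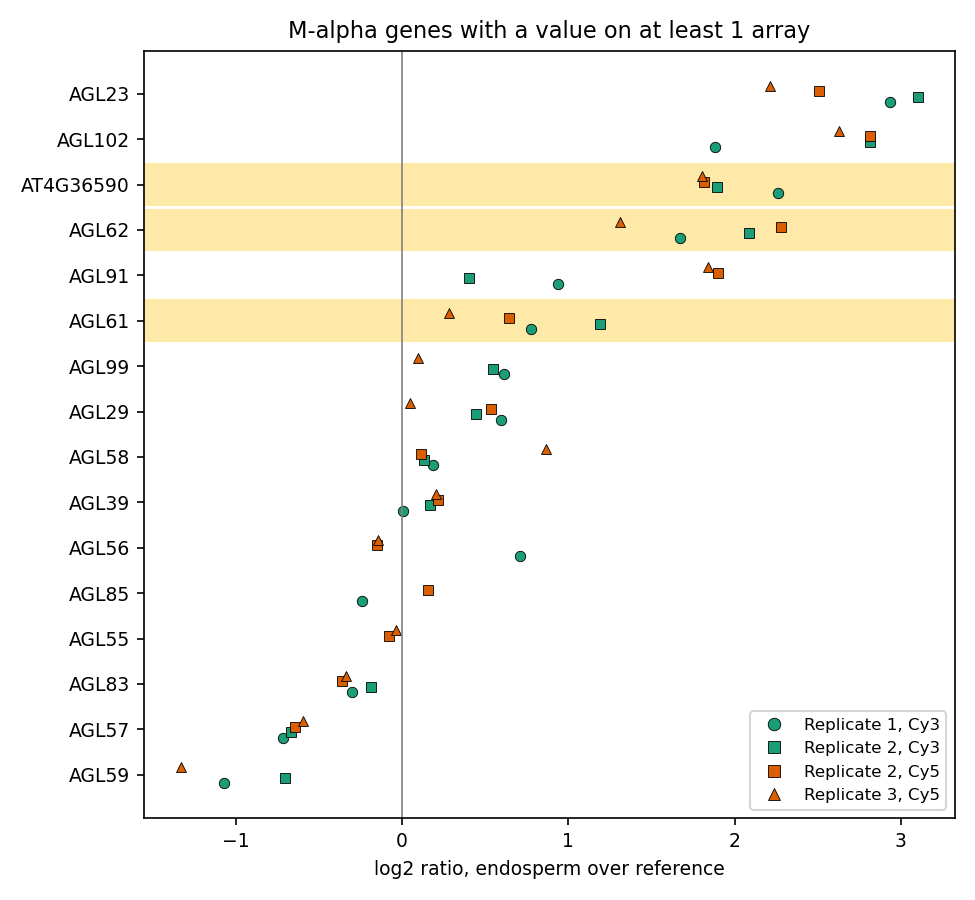
Log2 ratio (horizontal axis) on each array for the 16 M-alpha genes with a value on at least 1 array, ordered by their mean over arrays, with symbols for replicate and colours for dye as above and yellow bands on AGL62, AGL61 and AT4G36590. The genes run from AGL59, which lies below 0 on the 3 arrays that measured it, to AGL23, which lies above 2 on all 4, and AGL91 splits by colour.

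M-gamma proteins are the partners of the M-alpha class. Of 16 names 14 were matched to a locus (AGL35 and AGL45 were not and were not analysed here), 11 had a named probe and 7 had values on every array. Of these 7, 4 were called higher, 0 lower, and 3 were not called, with a median of 0.93. The share called higher, 57.1%, lay above the 33.9% of all named probes, of which 57.4% were called in either direction. For 7 genes this difference was not tested. The 4 genes called higher are among the endosperm markers that set the direction of the ratios, so their sign is no separate evidence of it. PHE1, the partner of AGL62, was at 2.05 in replicate 1, 2.64 and 3.04 in replicate 2 with Cy3 and Cy5, and 2.09 in replicate 3 (mean 2.33 ± 0.45, limma adjusted p = 0.00031). Both genes were thus highest in replicate 2 and, within it, on the Cy5 array. That order is not particular to this pair. Of the 3 endosperm markers that are no MADS-box genes, MPC and IKU1 shared it and IKU2 did not. PHE2, a close relative of PHE1, was at 2.97 ± 0.05 (limma adjusted p = 0.000124). That small SD comes after averaging the arrays of replicate 2, which were at 3.33 with Cy3 and 2.65 with Cy5. AGL86 was at 1.14 ± 0.11 (adjusted p = 0.000706) and AGL36, a maternally expressed imprinted gene, at 0.93 ± 0.24 (adjusted p = 0.00259). AGL41 (0.10 ± 0.08), AGL48 (0.09 ± 0.14) and AGL96 (-0.43 ± 0.40) were not called. AGL80, the partner of AGL61, had no named probe and was not analysed here. AGL96 is also one of the endosperm markers. It was called lower under 7 of the 13 alternatives, among them without replicate 1 (-0.64, adjusted p = 0.0178) and after centring of the arrays by median (-0.51, adjusted p = 0.0459). AGL95 had a value on 1 array (0.27).

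The remaining classes were described in the same way. Values on all arrays were held by 6 of 20 M-beta names, 3 of 7 MIKC* names and 5 of 39 MIKC names. Their calls are to be read against the 57.4% of named probes that were called, 33.9% higher and 23.6% lower. Of 6 measured M-beta genes, AGL43 was called higher (0.51 ± 0.25, limma adjusted p = 0.025), AGL54 was called lower (-0.65 ± 0.09, adjusted p = 0.00515), and 4 were not called, with a median of 0.10. AGL78, empty on 1 array, was called higher with values in at least 2 replicates (0.71 ± 0.51, limma adjusted p = 0.0354). Of 3 measured genes of the MIKC* class, which is known for its role in pollen, 0 were called, with AGL65 at 0.52 ± 0.53 and AGL30 at 0.24 ± 0.01; without replicate 2 AGL65 passed as higher (0.76, limma adjusted p = 0.043). AGL33, which had no value in replicate 1, was at 2.50 and 2.49 in replicate 2 and 1.95 in replicate 3. It was called higher with values in at least 2 replicates (2.22 ± 0.39, n = 2, limma adjusted p = 0.00131). Of 5 measured type II MIKC genes, AGL18 (-0.42 ± 0.12, adjusted p = 0.0291) and AGL19, a promoter of flowering (-0.51 ± 0.28, adjusted p = 0.0299), were called lower and 3 were not called, with a median of -0.42. The calls of AGL43, AGL18 and AGL19 were each lost when 1 of 2 replicates was left out. Without replicate 2 their ratios were 0.57, -0.47 and -0.52, about as large as with it, with limma adjusted p of 0.0794, 0.105 and 0.116. Without replicate 3 AGL43 was at 0.37 (adjusted p = 0.137) and AGL18 at -0.35 (adjusted p = 0.154). AGL19 was at -0.36 without replicate 1 (adjusted p = 0.0731), and it was lower on the Cy3 arrays (-0.81) than on the Cy5 arrays, where it did not pass (-0.20, adjusted p = 0.241). Treating replicate 2 as a random block of 2 arrays also ended the call of AGL19 (adjusted p = 0.0519). No gene of the M-beta, MIKC* or MIKC lists measured on all arrays, which leaves out AGL33, lay over 2-fold above the reference. Of all probes 13.0% did, as did 3 of the 8 M-alpha genes that are no members and 3 of 7 M-gamma genes. Those M-gamma genes, PHE1, PHE2 and AGL86, are also endosperm markers that set the direction, and the lists were chosen with earlier results known. Whether the classes differ was not tested.

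**Figure D4:**
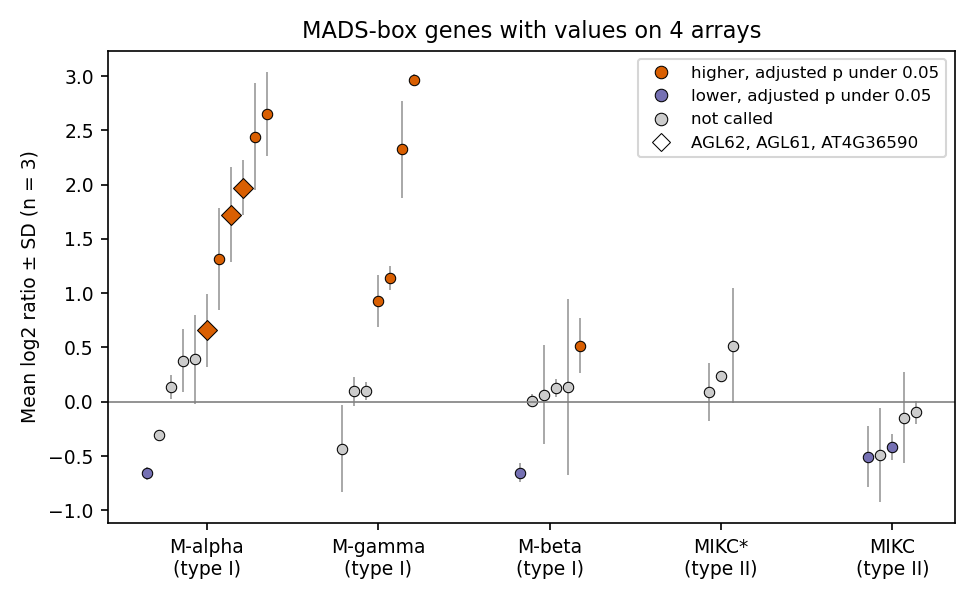
Mean log2 ratio ± SD over 3 replicates (vertical axis) of the MADS-box genes with values on all arrays, by class, with diamonds for AGL62, AGL61 and AT4G36590 and colours for the call. Points over 1 are seen for M-alpha and M-gamma genes, and the means of the 5 MIKC genes measured, of 39 names, lie below 0. The MIKC* gene AGL33 (2.22), which had no value in replicate 1, is not drawn.

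Probes of related genes could take up each other's transcripts, and how far they do so was not measured. AGL23 lies in the same stretch of chromosome 1 as PHE1 and PHE2, with 6 and 9 protein-coding genes between. The nearest protein-coding neighbours of the members were looked up by gene order and not by their values. AT2G24830, before AGL61, was higher at 1.18 ± 0.57 (limma adjusted p = 0.00609), a larger mean than that of AGL61. AT4G36580 and AT4G36600, on either side of AT4G36590, were higher at 1.02 ± 0.15 (adjusted p = 0.00118) and 0.77 ± 0.44 (adjusted p = 0.0152), both below AT4G36590 itself. Among all named probes 33.9% were called higher. Against a fold change of 1.5 AT4G36580 passed (limma adjusted p = 0.0321), but AT2G24830 (0.0746) and AT4G36600 (0.465) did not. The neighbours of AGL62 had no named probe.

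Genes around the members' known roles were thinly represented. A Polycomb complex with MEA, FIS2 and FIE represses AGL62 late in endosperm proliferation. A wider list of 8 Polycomb genes, these among them, had 0 genes with a named probe. AGL62 is also needed for export of auxin from the endosperm. Of 15 genes of auxin synthesis and export 3 had a named probe, and 2 had values on every array. YUC11, a flavin monooxygenase of auxin synthesis, was higher at 0.48, 0.31, 0.36 and 0.45 on the arrays in the same order (mean 0.42 ± 0.08, limma adjusted p = 0.0254), and YUC4 was not called (-0.29 ± 0.23). YUC11 stayed at 0.47 and 0.41 when replicate 2 or replicate 3 was left out, but no longer passed (adjusted p of 0.105 and 0.108 in limma), and it also did not pass after centring of the arrays by median (0.34, adjusted p = 0.0538). YUC4 passed as lower under 2 of the 13 alternatives. These were the Cy3 arrays alone (-0.53, limma adjusted p = 0.0447) and the dye as a term on the 4 arrays (-0.34, limma adjusted p = 0.0369).

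The named probes whose ratios came closest to each member were found by the root mean square difference over the 4 arrays, as a description. For AGL62 they were AT4G27480 (0.10), AT1G56400 (0.12) and AT3G14480 (0.12), and 130 of 10674 probes lay within 0.42, the SD between the swapped arrays of replicate 2. For AGL61 they were AT5G41450 (0.10), AT5G37220 (0.10) and AT1G69360 (0.12), with 1091 probes within that distance. For AT4G36590 they were CYTC6A (0.07), GPDHp (0.09) and FOLB1 (0.09), with 278 probes within it. No MADS-box gene was among these 9. With so many probes as near as a repeat of the same RNA, the likeness is not particular to the genes named.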

How the data were processed

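Endosperm RNA of 3 samples and 1 reference RNA were, per the labels' protocols, amplified in 2 rounds of in vitro transcription and coupled to Cy dyes, which can change proportions between transcripts. The deposited log2 ratios, 1 per probe and array for 26912 probes, were used as the authors made them. The sources used here do not give the scanner, background correction, normalization or the filter that left 3741 to 5083 cells per array empty. Intensities were not analysed here, so no filter on dim spots was applied.

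The gene table gave 14539 probes 1 gene, 0 several and 12373 none; 14485 were matched to RefSeq loci (assembly TAIR10.1), used for names and gene order. Only probes with values on all arrays entered the test. The arrays of replicate 2 were averaged (n = 3). The mean over replicates was compared with 0 in limma 3.58.1 (R 4.3.3, two-sided, Benjamini-Hochberg over 19449 probes). The same fit was also run on simulated data with far fewer changed probes than were called here, which does not bear on these calls. Errors are SDs over replicates. Confidence intervals are limma's, at 95%. The number of arrays limits the precision.

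Named genes were the members, all M-alpha and M-gamma genes with a value, the called genes of the other lists (or their 2 largest ratios), and the 3 genes closest to each member. YUC4, the neighbours of the members, AGL33, AGL78 and the marker genes were named in addition. The members and lists were chosen with earlier results of these data known.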

Additional observations from a re-analysis of the deposited data

Results flagged for a closer look

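Of the 18 M-alpha and M-gamma genes with values on all 4 arrays, 1 had an array far from the others: AGL58 was at 0.86 in replicate 3, whereas the other arrays lay between 0.11 and 0.19. The gap was 0.90 of its whole range by Dixon's measure, past the 95% limit for 4 values. Chance flags about 1 in 20 such groups, and the arrays of replicate 2 share their RNA.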

How the results depend on the processing

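No paired analysis was possible because the study has 1 group, compared with a reference RNA that has no replicates. The 13 alternatives kept the direction of all 3 members. AGL62 (log2 ratios from 1.49 to 1.93, adjusted p from 0.000148 to 0.00467) and AT4G36590 (1.81 to 2.08, adjusted p from 2.68e-05 to 0.00108) passed under each. AGL61 passed under 10, with log2 ratios from 0.56 to 0.98, and missed the threshold under 3: without replicate 2 (0.53), against a fold change of 1.5 (0.66 with adjusted p = 0.775, since the margin is stricter) and on the Cy5 arrays alone (0.46). Leaving out 1 replicate at a time gave 0.53 to 0.85 for AGL61. Why the Cy5 arrays and replicate 2 mattered was not tested. The number of probes called was 4885 against a fold change of 1.5 and between 8490 and 12966 under the other alternatives. After centring of the arrays by median 5491 probes were higher and 5465 lower, in place of 6231 and 4957. Between 3 and 6 of the other M-alpha genes were called. The correlation of the arrays of replicate 2, used as a random block, was estimated by moments (0.42), since limma's estimate could not be obtained. Signal over background is unknown here, and so is what it limits.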
